A study of Mus musculus with 2 samples.

Results

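Dividing nuclei that carried transcripts of granule neuron genes were examined in single-nucleus RNA-seq of the mouse cerebellum at postnatal day 1 (P1), under the working name of dividing granule neuron progenitors (GNPs). A nucleus was included where it had at least 1000 detected genes, at most 5% mitochondrial transcripts and at least 3 unique molecular identifiers (UMIs, counted transcript molecules) of the cell division genes Mki67, Top2a and Kif11 together. It also needed at least 2 UMIs of Pax6, Zic1 and Neurod1, transcription factors of the granule lineage, at most 3 of the glial genes Slc1a3 and Ptprz1, and at most 1 of Gad1 and Gad2, the enzymes that make GABA. These conditions selected 337 of 11803 nuclei, 235 of 4857 in the control library and 102 of 6946 in the library with the label of the conditional knockout (cKO). The members were thus chosen by the measured UMIs of these 10 genes. Control mice were Cre-negative littermates with the genotype Tox3f/f or Tox3f/+, and cKO mice were Nestin-cre;Tox3f/f, so both groups carried a Tox3 allele flanked by loxP sites. Nestin-cre is active in neural precursors at large, so recombination in these mice is not limited to the granule lineage. Each library was made from 12 pooled cerebella frozen at P1. With 1 library per group no difference below has a replicate check or a test, and every interval is an exact 95% interval that covers counting error only.

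GNPs arise from the rhombic lip and divide in the external granule layer, mainly in response to Sonic hedgehog (Shh) released by Purkinje cells, before they leave the cell cycle and migrate inward as granule neurons. The basic helix-loop-helix factor Atoh1 is required to form them, and it binds DNA at short E-box motifs. Tox3 is a member of the TOX family, whose proteins bind DNA through a high mobility group box. Pax6 and Zic1 mark the granule lineage, but Zic1 and the dividing state are shared with other progenitors of the neonatal cerebellum, such as those of the GABAergic interneurons, which carry Pax2, Tfap2b or Ptf1a.

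The 235 control members held 1236294 UMIs, or 4694 UMIs and 2528 genes in the median nucleus. The 102 cKO-labelled members held 481075 UMIs, or 4158 UMIs and 2286.5 genes in the median nucleus. The whole libraries held 22325208 and 33726533 UMIs. The libraries shared 9 cell barcodes, and no member's barcode was found in the other library. UMIs of a class were summed per library and scaled to a common total of 1000000 UMIs per class (CPM).

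Control members made up 6.16% of the nuclei that passed the filter (235 of 3816, 5.42 to 6.97%), and members of the cKO-labelled library made up 1.64% (102 of 6217, 1.34 to 1.99%). The share was 3.75-fold lower (2.96 to 4.78). Granule lineage nuclei, which met the same conditions without the demand for division genes, were a smaller share too but not fewer in number. They were 2103 of 3816 filtered nuclei in control (55.1%) and 2197 of 6217 in the cKO-labelled library (35.3%). The filter had kept 3816 of 4857 control nuclei and 6217 of 6946 in the cKO-labelled library. Of these granule lineage nuclei, 11.2% (9.86 to 12.6%) were dividing in control and 4.64% (3.80 to 5.61%) in the cKO-labelled library, which was 2.41-fold lower (1.90 to 3.07). Dividing nuclei that failed another condition of the rule were 3.83% and 3.41%, a ratio of 0.891 (0.718 to 1.11). The members thus made up 61.7% of all dividing nuclei in control and 32.5% in the cKO-labelled library.

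**Figure D1:**
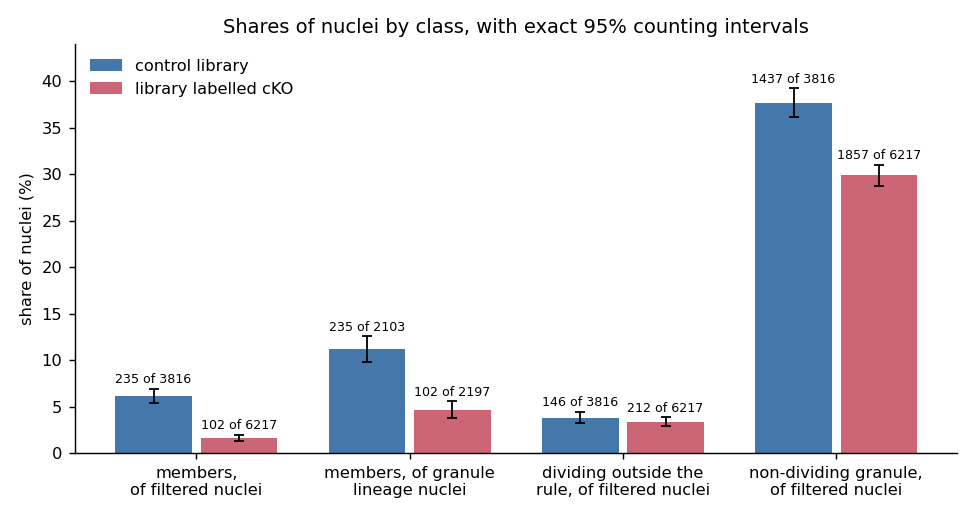
Share of nuclei in percent (y axis) for the dividing Pax6/Zic1 nuclei and for 2 comparison classes (x axis), as bars for the control library and the cKO-labelled library, with exact 95% counting intervals and the counts above. The members were 6.16% and 1.64% of filtered nuclei, while dividing nuclei outside the rule were at 3.83% and 3.41%.

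Most genes that chose the members had like levels in both libraries, and Zic1 was higher in the cKO-labelled one. The 3 division genes had 584 and 588 CPM for Mki67, 879 and 757 for Top2a, and 307 and 331 for Kif11, control first. Pax6 stood at 633 and 603 CPM, Neurod1 at 99.5 and 95.6, and Zic1 at 438 and 659. Just inside the limit on division genes, with 3 UMIs, lay 29 control members and 21 of the cKO-labelled library, and just outside, with 2 UMIs, lay 82 and 40 nuclei that met the other conditions. At the limit on Pax6, Zic1 and Neurod1, 27 and 5 members had 2 UMIs, and 16 and 14 nuclei outside had 1. At the limit on glial genes, 6 and 9 members had 3 UMIs and 7 and 4 nuclei outside had 4, and at the limit on Gad1 and Gad2, 27 and 18 members had 1 UMI and 6 and 7 nuclei outside had 2.

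Genes the rule did not use were read as a check of the name. At least 1 UMI of 6 genes that the study followed as GNP-enriched (Barhl1, Btbd11, Col18a1, Ntn1, Rnf220 and Sema7a) was found in 220 of 235 control members (93.6%) and in 40 of 102 members of the cKO-labelled library (39.2%). Microglia, which should lack these genes, had such a UMI in 39.0% of 77 nuclei in control and in 29.7% of 192 in the cKO-labelled library, at median depths of 3757 and 2948.5 UMIs. With every nucleus thinned to 2000 UMIs, the shares were 85.0% and 27.5% in members and 24.7% and 16.6% in microglia. Some nuclei of the microglia class also held granule genes, up to 21 and 27 UMIs of Pax6, Zic1 and Neurod1, and no doublets were removed. At least 5 UMIs of the 6 genes were counted in 151 control members (64.3%) and in 9 members of the cKO-labelled library (8.82%). In microglia this share was 7.79% and 3.13%.

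Markers of GABAergic progenitors went the other way. Any UMI of 7 such markers (among them Pax2, Tfap2b, Kirrel2, Lbx1, Ptf1a and Slc32a1) was found in 36 control members (15.3%) and in 46 cKO-labelled members (45.1%). In microglia the shares were 16.9% and 21.9%. With every nucleus thinned to 2000 UMIs, which left out 2 control members and 4 and 29 microglia, the shares were 11.2% and 37.3% in members and 6.85% and 16.0% in microglia. At least 5 UMIs of the 7 markers were counted in 13 control members (5.53%, 2.98 to 9.27%) and in 31 members of the cKO-labelled library (30.4%, 21.7 to 40.3%). Among the 102 cKO-labelled members, 25 had progenitor genes alone, 31 (30.4%) had GABAergic markers alone, 15 had both and 31 (30.4%) had neither. In control, 191 of 235 members had progenitor genes alone, 29 had both, 7 had GABAergic markers alone and 8 (3.40%) had neither. Since GABAergic markers, found in 45.1% of cKO-labelled members, go against the name of dividing GNPs, the nuclei are called dividing Pax6/Zic1 nuclei, or members, from here on. The 6 followed genes cannot settle the name, since the study picked them from these libraries. The split by GABAergic markers was chosen after the data had been seen, and it left Pax3 and Sorcs3 out of a list of 9 markers. Any UMI of the 9 was found in 49.8% of control members and 70.6% of cKO-labelled ones, and in 36.4% and 31.8% of microglia. Pax3 alone was found in 38.7% and 59.8% of members.

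**Figure D2:**
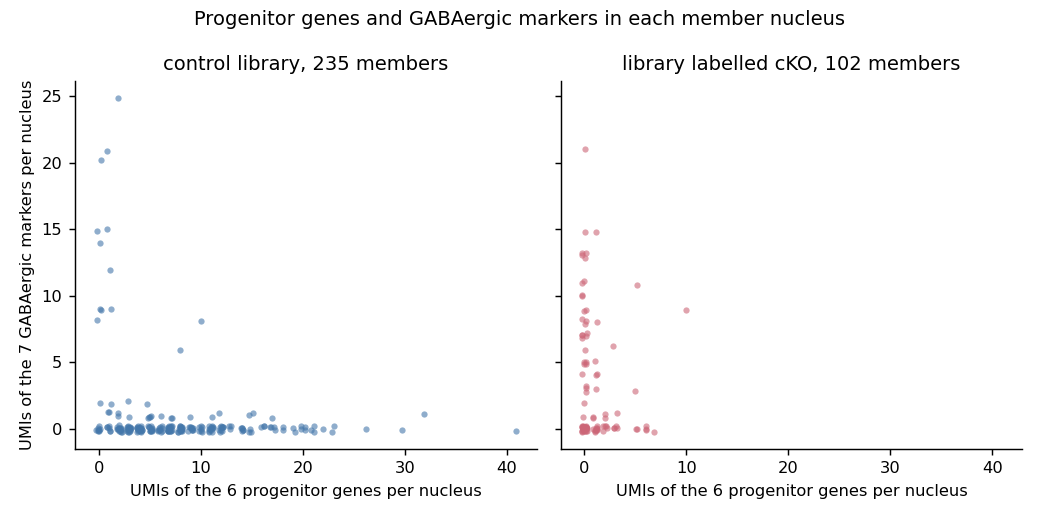
UMIs of the 6 progenitor genes (x axis) against UMIs of the 7 GABAergic markers (y axis) in each member nucleus, control on the left and the cKO-labelled library on the right, with points shifted by up to 0.25 UMI so that they do not cover each other. Control members reach 41 UMIs on the x axis and 25 on the y axis, and cKO-labelled members reach 10 and 21.

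Once members with a UMI of the 7 markers were set aside, 199 remained in control and 56 in the cKO-labelled library, or 5.21% and 0.901% of filtered nuclei. The difference in share was then 5.79-fold (4.28 to 7.93). Of 4456 genes at 50 CPM or more on average in these nuclei, 161 (3.61%) were at least 2-fold higher in the cKO-labelled library and 148 (3.32%) at least 2-fold lower.

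Tox3 UMIs were not lower in members of the cKO-labelled library. Tox3 (ENSMUSG00000043668, chromosome 8, 90247040 to 90348343, minus strand, GRCm38) had 309 UMIs in control members, or 250 CPM (223 to 279), and 274 UMIs, or 570 CPM (504 to 641), in members of the cKO-labelled library. The ratio was 2.28 (1.93 to 2.69), and 1.78 among members with no glial or Gad UMI. A Tox3 UMI was found in 58.3% of control members and 79.4% of those labelled cKO, and in 23.4% and 14.6% of microglia. Members without a GABAergic marker had 218 and 500 CPM, a ratio of 2.29 (1.83 to 2.87). In the non-dividing granule nuclei the ratio was 1.16 (1.02 to 1.31), in dividing nuclei outside the rule 1.15 (0.971 to 1.36), and in microglia 0.782 (0.545 to 1.13). Counts per gene do not show whether the floxed segment was transcribed, so they check the genotype in neither direction. By RT-qPCR of P1 cerebella, the study found Tox3 almost fully deleted in mutants, and it used mutant tissue to check its Tox3 antibody. Tox4 was at 57.4 and 76.9 CPM, and Tox at 14.6 and 56.1 CPM.

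Atoh1 (ENSMUSG00000073043, chromosome 6, 64729125 to 64731245, plus strand) was near the limit of detection. Control members had 9 Atoh1 UMIs in 9 nuclei, or 7.28 CPM (3.33 to 13.8). Members of the cKO-labelled library had none in 102 nuclei, where 3 counts would allow 2.94% of nuclei and the exact upper limit was 3.55%. With the ratio's interval reaching up to 1.30, the depth did not allow a difference to be detected. Among microglia, 1 of 77 control nuclei and 0 of 192 had an Atoh1 UMI.

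Across genes, 4384 had a mean of at least 50 CPM over both libraries' members. Of these, 159 (3.63%) were at least 2-fold higher in the cKO-labelled library and 106 (2.42%) at least 2-fold lower, 6.04% in either direction, with a median log2 ratio of -0.03 over all 4384. A gene is called higher or lower below where it met both limits, which describe these 2 libraries and are no test. Among members without a GABAergic marker, 81 of the 159 higher genes and 66 of the 106 lower ones were also called. These nuclei are part of the members that gave the first calls, so the overlap is not independent of them.

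**Figure D3:**
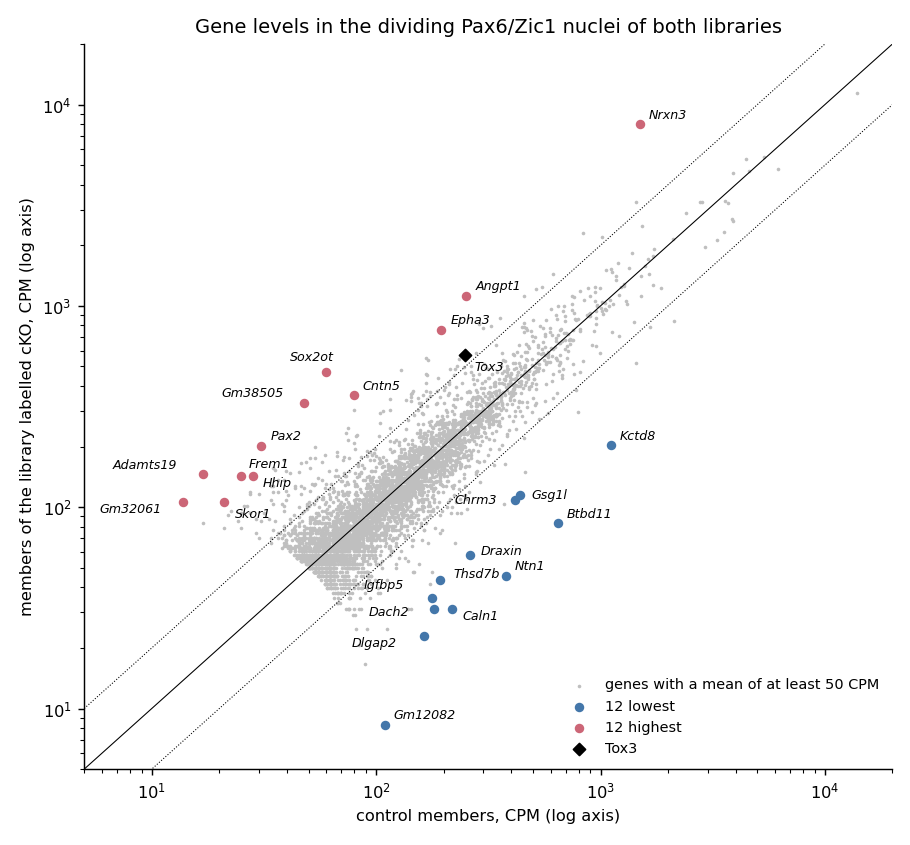
Level of each gene with a mean of at least 50 CPM in control members (x axis) and in members of the cKO-labelled library (y axis), both in CPM on log axes, with the line of equal levels and dotted lines at 2-fold. The genes of the rule, Xist and Tsix are left out. The 12 genes with the lowest and the 12 with the highest ratio by their counting interval are named, with Tox3 above the upper 2-fold line.

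All 4 of the 6 GNP-enriched genes that reached 50 CPM were lower in the cKO-labelled library, against 2.42% of all genes. The study chose these genes from the same libraries, so their direction is not independent evidence. Btbd11, which encodes an ankyrin repeat and BTB domain protein (chromosome 10, 85386814 to 85660292), had 796 UMIs in control and 40 in the cKO-labelled library, or 644 (600 to 690) and 83.1 (59.4 to 113) CPM, and was 7.74-fold lower (5.64 to 10.9). Ntn1, the secreted guidance cue netrin-1 (chromosome 11, 68209364 to 68400823), had 379 (345 to 414) and 45.7 (28.7 to 69.2) CPM, 8.28-fold lower (5.40 to 13.3). Its locus overlaps Gm12305 on the same strand, so their UMIs may be shared. Both genes were far lower in the cKO-labelled library. Their CPM intervals did not overlap, but these cover counting error only, and the share of all genes without overlap is not given here. Both genes also rank among the lowest by the bound of their ratio's interval, so the lack of overlap is not independent evidence. Sema7a, a membrane-anchored semaphorin, had 138 and 31.2 CPM, 4.44-fold lower (2.62 to 8.10). Rnf220, a ubiquitin ligase, had 146 and 47.8 CPM, 3.06-fold lower (1.98 to 4.95). The other 2 genes averaged under 50 CPM and were not counted: Barhl1, a homeobox factor of the rhombic lip lineage, had 112 and 2 UMIs, and Col18a1, which encodes collagen XVIII, had 101 and 3. Their ratios were 0.0459 (0.00549 to 0.170) and 0.0763 (0.0155 to 0.230). Summed over the 6 genes, members had 1479 CPM in control and 218 in the cKO-labelled library, a ratio of 0.148 (0.120 to 0.180). Among the 199 and 56 members without a GABAergic marker the sums were 1593 and 272 CPM, a ratio of 0.171 (0.132 to 0.218). All 6 genes were then called lower, against 3.32% of all genes.

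The other 10 of the 12 lowest genes included several of neuronal signalling. Kctd8, an auxiliary subunit of the GABA B receptor (chromosome 5, 69109285 to 69341679), was the most abundant of them, with 1115 CPM (1057 to 1175) in control and 204 (165 to 248) in the cKO-labelled library, 5.47-fold lower (4.46 to 6.79). Caln1, a calcium-binding protein of neurons, had 217 and 31.2 CPM. Chrm3, a muscarinic acetylcholine receptor, had 417 and 108 CPM and overlaps Gm47405 and Gm47404 on its strand. Gsg1l, an auxiliary subunit of AMPA receptors, had 439 and 114 CPM. Dlgap2, a scaffold protein of the postsynaptic density, had 163 and 22.9 CPM. These genes were 3.84-fold to 7.11-fold lower, but with at least 2 division gene UMIs as the limit the ratio of Dlgap2 was 0.754 in place of 0.141, within 2-fold, and that of Caln1 0.332 in place of 0.144. Draxin, a secreted repellent of growing axons, had 261 and 58.2 CPM, 4.49-fold lower (3.05 to 6.86). Dach2, a transcription factor of the dachshund family, had 181 and 31.2 CPM, Igfbp5, which binds insulin-like growth factors, 178 and 35.3 CPM, and Thsd7b 193 and 43.7 CPM. The long noncoding RNA Gm12082 had 109 CPM in control and 8.31 in the cKO-labelled library, with 135 and 4 UMIs. Gm12082 was about as low in every other class, with ratios of 0.0704 in non-dividing granule nuclei, 0.0717 in dividing nuclei outside the rule and 0.102 in microglia. Ntn1 too was lower in each of these classes, at ratios of 0.146, 0.338 and 0.160. All 12 genes were called lower among members without a GABAergic marker too, and 11 of the 12 among members with one, where Gm12082 was under the limit of 50 CPM. The 12 were picked from these same nuclei, so their calls in either part are no independent check.

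The 250 bases before the annotated start of some of these genes were read for 2 E-box motifs, CAGCTG and CAGATG, on both strands. The study placed its E-boxes in enhancers, by ChIP-seq and reporter assays, at genes such as Atoh1, Barhl1 and Col18a1. These windows need not cover those enhancers, and a part of Atoh1 in the lower levels was not tested. The lowest and the GNP-enriched genes were picked from these libraries. Either motif was in 4 of 10 such promoters of the 12 lowest genes (40.0%), 3 of 8 of the 6 GNP-enriched genes (37.5%) and 2 of 17 of the 12 highest genes (11.8%). It was in 25.8% of 97 promoters of all genes called lower, 22.5% of 173 of those called higher, 20.0% of 4536 of all genes tested and 25.5% of all 32851 promoters listed. Some genes had several promoters listed and others, such as Ntn1, had none, so these are shares of promoters and not of genes. The 3 of 8 were both promoters of Barhl1 and that of Sema7a. The sequences of 3 lower genes with a motif (Barhl1, Kctd8 and Sema7a), of Btbd11 without one, and of Tox3 are shown as RefSeq gives them for GRCm38.p6, 5′ to 3′ on the gene's strand, with the motif in capitals. They cover chr2:28916669-28916918 and chr5:69341710-69341959 (minus strand), chr9:57939862-57940111 and chr10:85386564-85386813 (plus strand), and chr8:90348253-90348502 (minus strand).
Barhl1: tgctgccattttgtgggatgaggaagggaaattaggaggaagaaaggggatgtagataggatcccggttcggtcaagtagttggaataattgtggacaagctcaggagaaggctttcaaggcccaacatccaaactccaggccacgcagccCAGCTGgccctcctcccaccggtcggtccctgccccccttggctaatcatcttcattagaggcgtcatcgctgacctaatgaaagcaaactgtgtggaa
Kctd8: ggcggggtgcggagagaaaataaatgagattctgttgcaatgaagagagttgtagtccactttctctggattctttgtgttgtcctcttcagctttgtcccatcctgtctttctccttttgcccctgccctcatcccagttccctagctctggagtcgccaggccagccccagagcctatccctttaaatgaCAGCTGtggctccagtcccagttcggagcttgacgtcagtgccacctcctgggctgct
Sema7a: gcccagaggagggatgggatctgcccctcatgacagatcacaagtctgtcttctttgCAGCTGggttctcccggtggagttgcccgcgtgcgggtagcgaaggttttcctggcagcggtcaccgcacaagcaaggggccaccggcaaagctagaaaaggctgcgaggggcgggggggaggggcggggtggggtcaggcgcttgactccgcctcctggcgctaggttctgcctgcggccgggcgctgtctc
Btbd11: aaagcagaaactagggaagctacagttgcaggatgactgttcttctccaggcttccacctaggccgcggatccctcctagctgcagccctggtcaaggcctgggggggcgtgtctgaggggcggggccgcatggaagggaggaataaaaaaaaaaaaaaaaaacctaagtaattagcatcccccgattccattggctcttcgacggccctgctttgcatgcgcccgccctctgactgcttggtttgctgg
Tox3: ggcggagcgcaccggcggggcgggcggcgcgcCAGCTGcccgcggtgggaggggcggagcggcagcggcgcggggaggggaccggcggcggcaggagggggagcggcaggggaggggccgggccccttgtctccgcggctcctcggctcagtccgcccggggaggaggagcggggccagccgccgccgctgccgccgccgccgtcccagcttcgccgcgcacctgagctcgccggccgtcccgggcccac
The letters are a match to a short motif and not a binding site, and Btbd11, among the genes with the lowest ratio, had neither motif in this window.

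Several of the 12 highest genes had lower levels outside the nuclei with a GABAergic marker. Sox2ot, a long noncoding RNA that spans the Sox2 gene (chromosome 3, 34104270 to 34682619, plus strand), had 59.9 CPM (47.0 to 75.1) in control and 468 (409 to 533) in the cKO-labelled library, a ratio of 7.81 (5.98 to 10.3). Gm38505 lies within it on the other strand and had 47.7 and 331 CPM. Sox2 itself had 3 and 1 UMIs. Pax2, the transcription factor of GABAergic interneuron progenitors (chromosome 19, 44756045 to 44837871), had 30.7 CPM (21.8 to 42.2) and 202 (164 to 246), a ratio of 6.56 (4.47 to 9.81). Skor1, a transcriptional corepressor, had 21.0 and 106 CPM, and Hhip, which binds and limits Shh, had 28.3 and 143 CPM. In the members without a GABAergic marker, Skor1 was down to 1 and 0 UMIs, Hhip to 7 and 3, and Gm38505 to 24 and 0, while Sox2ot stood at 23.4 and 44.7 CPM. In the 36 and 46 nuclei with a marker, Sox2ot had 239 and 910 CPM, Gm38505 167 and 676, Hhip 134 and 281, and Skor1 119.6 and 217, of which only Skor1 stayed under 2-fold. Adamts19, a secreted metalloprotease (17.0 and 146 CPM), the noncoding RNA Gm32061, which overlaps Mkrn3 on its strand (13.8 and 106 CPM), and the adhesion protein Cntn5 (79.3 and 360 CPM) were past 2-fold in nuclei with a marker. Without a marker, Adamts19 had 9.73 and 44.7 CPM, a ratio of 4.59 (1.77 to 12.1), and Gm32061 had 3.89 and 20.3 CPM, a ratio of 5.22 (1.12 to 26.3), both from few UMIs and under the limit of 50 CPM, while Cntn5 had 58.4 and 85.4 CPM. The nuclei with a marker were 15.3% of control members and 45.1% of cKO-labelled ones, and their part in these differences was not tested further.

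Members without a GABAergic marker are part of the nuclei from which the 12 highest genes were picked. There, 4 of the 12 were called higher, Cntn5 was within 2-fold, and 7 were under 50 CPM and could not be called. Pax2 was among these uncalled genes because it is itself a marker of the split, so its absence there was fixed by the selection. Nrxn3, a neurexin of presynaptic terminals (chromosome 12, 88722876 to 90334935), had 1500 CPM (1432 to 1570) in control members and 7965 (7715 to 8222) in members of the cKO-labelled library, a ratio of 5.31 (5.02 to 5.62). Without a marker, the levels were 610 and 2915 CPM and the ratio 4.78 (4.28 to 5.32). With a marker, they were 5870 and 13249 CPM. Epha3, an ephrin receptor (chromosome 16, 63543534 to 63864175), had 195 (171 to 221) and 763 (687 to 845) CPM. Its ratio was 3.91 (3.32 to 4.62), and without a marker it was 5.63 (4.59 to 6.90), from 165 and 931 CPM. Angpt1, the ligand angiopoietin 1, had 252 and 1125 CPM in all members, and 54.5 and 179 CPM without a marker, a ratio of 3.28 (2.16 to 4.96). Frem1, an extracellular matrix protein, had 25.1 and 143 CPM in all members and 4 and 25 UMIs without a marker. Nrxn3 was past 2-fold in both kinds of member, and Epha3, with 340 and 587 CPM in nuclei with a marker, only in those without.

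**Figure D4:**
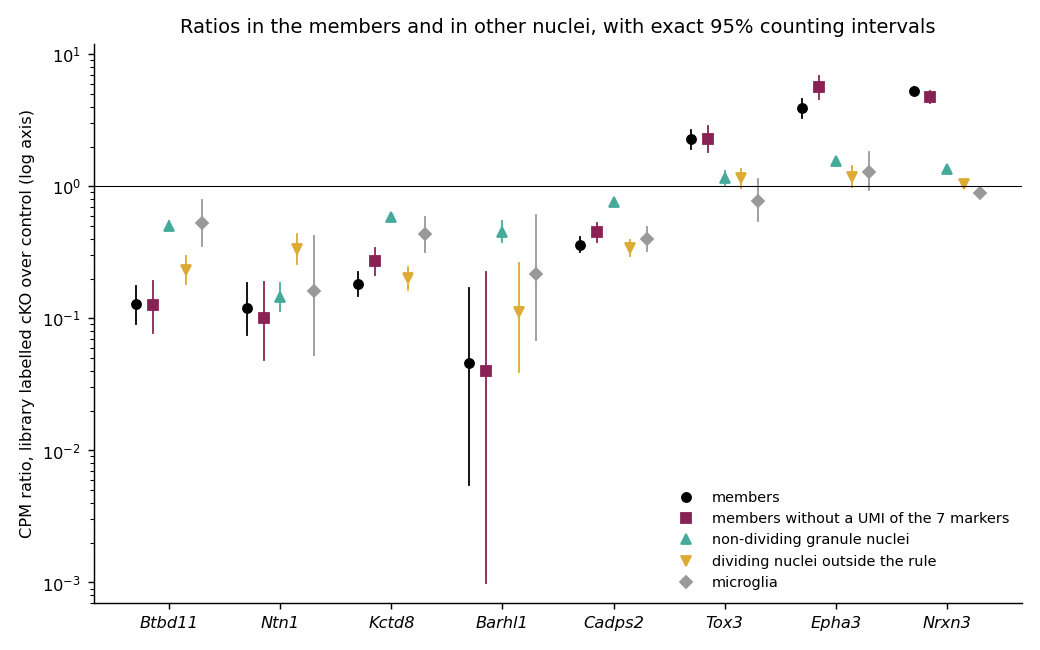
Ratio of CPM in the cKO-labelled library over control (y axis, log scale) for 8 genes (x axis), in all members, in members without a UMI of the 7 GABAergic markers, and in 3 other classes, with exact 95% counting intervals. Tox3, Epha3 and Nrxn3 lie higher in the members than in the other classes, and Btbd11, Ntn1, Kctd8, Barhl1 and Cadps2 lie below 1 in every class shown.

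Over all members, genes of S phase and of G2/M outside the rule that reached 50 CPM stayed within 2-fold. Of all genes, 6.04% were called in either direction. The members were chosen by division genes, so like levels of other division genes are not independent of the selection. Without GABAergic markers, Tipin was called lower of 26 S phase genes and Cdc25c higher of 40 G2/M genes, against 3.32% and 3.61% of all genes. None of the 25 S phase genes that reached 50 CPM was called in either direction, and 19 of them had a ratio below 1, with a median log2 ratio of -0.28. Their sum over all 43 listed was 4226 CPM in control and 3586 in the cKO-labelled library, a ratio of 0.848 (0.803 to 0.896). Pola1, a subunit of DNA polymerase alpha, had 437 and 301 CPM, Atad2 431 and 335, and Mcm6, a subunit of the replicative helicase, 121 and 85.2. The clamp protein Pcna had 62.3 and 41.6 CPM, and Rrm1, of ribonucleotide reductase, 93.8 and 116. None of the 40 G2/M genes tested was called, with a median of 0.11, and the summed ratio over all 51 listed was 1.03 (0.987 to 1.07). Cenpf, a kinetochore protein, had 277 and 299 CPM, Cdk1 75.2 and 81.1, and Hmmr, a spindle protein, 106 and 158. The median nucleus had 4.44 UMIs of S phase genes per 1000 in control and 3.44 in the cKO-labelled library, and 6.59 and 6.54 of G2/M genes. In the 12 lists drawn, the S phase list lay a little below the level of all genes and the G2/M list a little above it.

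Of 13 cyclins, cyclin-dependent kinases and E2F factors tested, none was called, against 6.04% of all genes in either direction. The summed ratio over the 26 listed was 1.04 (0.971 to 1.12). Ccnd1 had 90.6 and 54.0 CPM, and Ccnd2 287 and 457, a ratio of 1.59 (1.34 to 1.89). Without GABAergic markers these ratios were 0.980 and 0.949, and of 14 genes tested there Ccnb1 was called higher and Mycn lower, against 3.61% and 3.32% of all genes. Over all members Mycn, which drives GNP division, averaged under 50 CPM and had 82 and 13 UMIs, a ratio of 0.407 (0.208 to 0.736). The 17 listed genes of cell cycle exit summed to 269 and 422 CPM, a ratio of 1.57 (1.31 to 1.87), and 1.41 (1.10 to 1.79) without GABAergic markers. Among them, Cdkn1b was the only one to reach 50 CPM, with 44.5 and 56.1 CPM. Btg2, an antiproliferative gene, had 9 and 27 UMIs. Of 7 histone genes tested, Hist1h2ap was lower, with 174 and 41.6 CPM, against 2.42% of all genes called lower, and 6 of the 7 had a ratio below 1. The sum of the 26 histone genes had a ratio of 0.730 (0.664 to 0.802). Copies of histone genes are similar, so counts may be split between them.

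Of 11 genes of the Shh pathway that reached 50 CPM, 1 was called higher, Hhip, and none lower, against 3.63% and 2.42% of all genes. Their median log2 ratio was -0.47 against -0.03 for all genes. Without GABAergic markers, Hhip had 6.81 and 12.2 CPM, under the limit of 50 CPM. Among receptors, Ptch1, which binds Shh and is also its target, had 497 and 511 CPM, and the transducer Smo 75.2 and 54.0. Boc, a coreceptor for Shh, had 533 CPM (493 to 575) and 274 (230 to 325), a ratio of 0.515 (0.424 to 0.621), just short of 2-fold. Among the transcription factors, Gli1 had 63.1 and 41.6 CPM, Gli2 569 and 410, and Gli3 160 and 110. Sufu, which restrains Gli factors, went the other way with 123 and 216 CPM. The 56 and 199 members without a GABAergic marker gave ratios nearer to 1 for Gli2, at 0.927, and higher for Ptch1, at 1.58 (1.34 to 1.87). Boc, at 0.436 (0.330 to 0.567), was then called lower, alone of 11 tested, against 3.32% of all genes. Shh itself was not counted in any member. None of the 13 primary cilium genes tested was called, against 6.04% of all genes in either direction, and their median was -0.06.

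None of the 19 transcription factors of the granule lineage tested was called, with a median of 0.13. Of all genes, 6.04% were called in either direction, so none among so few is near that share. Nfia and Nfib, the most abundant, had 3690 and 3251 CPM and 4453 and 5390 CPM. Meis1 had 1272 and 1260 CPM, Zic4 370 and 410, and Pbx3 1194 and 1628. These tested factors thus differed by less than 2-fold. Barhl1 and Atoh1 are in this list too, but averaged under 50 CPM and were not counted. Without GABAergic markers, Barhl1 alone of 19 tested was called, as lower, against 3.32% of all genes. The GNP-enriched genes that reached 50 CPM differed by 3.06-fold or more, but the study picked them from these libraries, so the contrast is not independent evidence. Genes of later granule neurons were not lower as a group: of 31 tested, 6 were called higher (against 3.63% of all genes) and 1 lower (against 2.42%), with a median of 0.21. Beside Nrxn3, the genes called higher included the synaptic adhesion gene Nlgn1 (612 and 1434 CPM), the NMDA receptor subunit Grin2b (167 and 376 CPM), the semaphorin receptor Plxna2 (75.2 and 247 CPM) and the adhesion protein Chl1 (116 and 247 CPM). Without GABAergic markers, Nlgn1, Grin2b, Plxna2 and Nrxn3 were still called, at ratios of 2.60, 2.58, 2.41 and 4.78, and Chl1, at 0.803, was not. Of all genes there, 3.61% were called higher. Cadps2, which primes secretory vesicles in granule cells, was lower, with 1433 and 520 CPM, a ratio of 0.363 (0.316 to 0.414). The summed ratio of this list was 1.15 (1.13 to 1.17) in all members but 0.963 (0.941 to 0.986) without GABAergic markers, and Dcc, the netrin receptor and its most abundant gene, had 13874 and 11381 CPM in all members and 13424 and 7347 without markers.

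Of 26 axon guidance genes tested, 4 were called higher (Epha3, Plxna2, Sema5b and Ephb1) and 3 lower (Ntn1, Sema7a and Robo2), against 3.63% and 2.42% of all genes. Without GABAergic markers, 2 were higher (Epha3 and Plxna2) and 5 lower, against 3.61% and 3.32% of all genes. Those added as lower were Epha5 (270 and 134 CPM) and Epha7 (140.2 and 40.7 CPM). Robo2, a receptor for Slit proteins, had 2122 and 840 CPM, a ratio of 0.396 (0.356 to 0.440), and without markers 0.474. Ephb1 had 153 and 349 CPM, but a ratio of 0.844 without markers, and Sema5b, a semaphorin, had 36.4 and 137 CPM. The chemokine receptor Cxcr4, which holds GNPs at the surface of the cerebellum, averaged under 50 CPM and had 68 and 6 UMIs. Of 18 potassium channel genes, Kcnn2 was higher (41.3 and 148 CPM) and Kcnd3 lower (376 and 164 CPM), against 3.63% and 2.42% of all genes. Without GABAergic markers none was higher, with Kcnn2 at 32.1 and 40.7 CPM, and Kcnd3 and Kcnip4 (499 and 207 CPM) were lower. The shares of all genes there were 3.61% higher and 3.32% lower. Frem1 alone was called of 5 matrix genes tested, as higher, against 3.63% of all genes. Fbln2, a matrix glycoprotein under 50 CPM on average, had 89 UMIs in control and 1 in the cKO-labelled library. No gene was called among 4 Notch, 7 FGF and WNT, 5 p53 and apoptosis genes, or in the 1 stress gene that reached 50 CPM. Of all genes, 6.04% were called in either direction. The summed ratios of these 4 lists were 0.862 (0.795 to 0.934), 1.20 (1.13 to 1.26), 0.998 (0.885 to 1.12) and 1.27 (1.05 to 1.53).

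**Figure D5:**
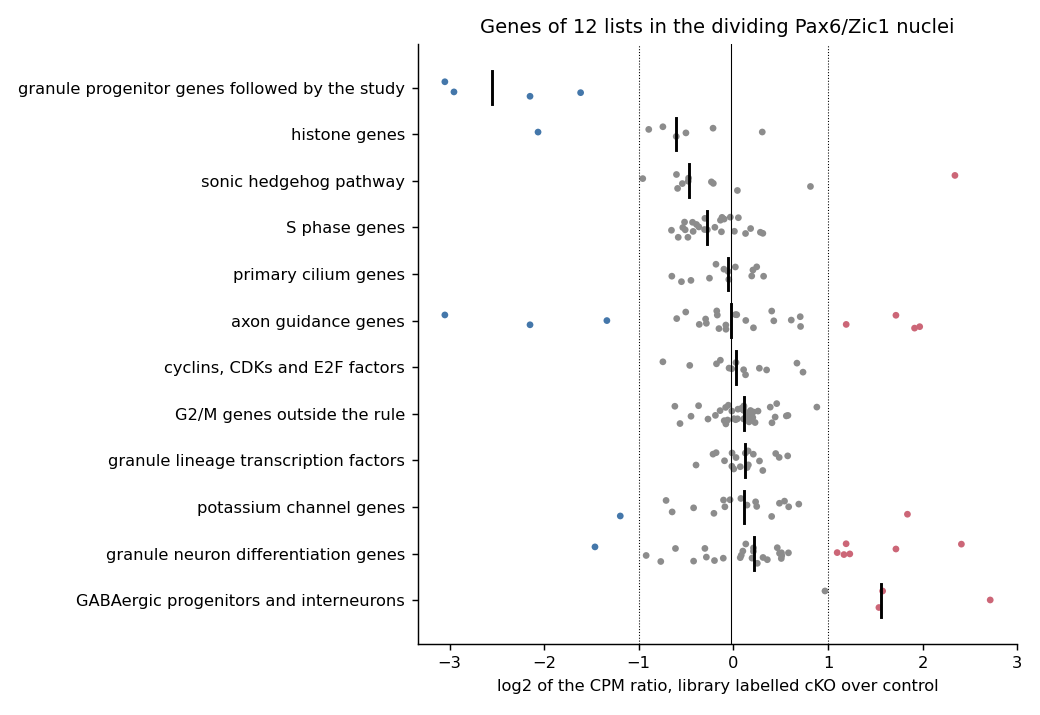
Log2 of the CPM ratio, library labelled cKO over control (x axis), of each gene that reached 50 CPM in 12 lists (y axis), with the median of each list as a black bar, the median of all genes as a solid line and 2-fold as dotted lines. Blue points are called lower and red points higher, and the 4 GNP-enriched genes and 3 of the 4 GABAergic markers lie past 2-fold in opposite directions.

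Of 8 tested markers of granule neuron progenitors that the rule did not use, none was called, against 6.04% of all genes. The 12 listed summed to 2389 CPM in control and 1914 in the cKO-labelled library, a ratio of 0.801 (0.743 to 0.863). Barhl1 and Atoh1, among the 12, averaged under 50 CPM and were not tested. Without GABAergic markers, Barhl1 and Boc were called lower, against 3.32% of all genes. The 5 markers of the working name, which include genes of the rule, summed to 2841 and 2937 CPM. Markers of other cell types were summed over the members too. Over the 9 markers of GABAergic progenitors and interneurons, which add Pax3 and Sorcs3 to the 7 above, control members had 407 CPM and members of the cKO-labelled library 1193, a ratio of 2.93 (2.60 to 3.31). Of the 4 that reached 50 CPM, 3 were higher, against 3.63% of all genes: Tfap2b (116 and 345 CPM), Pax2 and Sorcs3 (43.7 and 127 CPM). Ptf1a, which defines early GABAergic progenitors, had 0 and 3 UMIs. Over 8 Purkinje cell markers the sums were 1253 and 1732 CPM, with Skor2 at 3 and 1 UMIs. The summed ratio was 1.19 (1.00 to 1.42) over astroglial markers, with Gfap at 0 and Sox2 at 3 and 1 UMIs. It was 0.628 (0.483 to 0.808) over microglial, 0.790 (0.580 to 1.06) over oligodendrocyte, 0.709 (0.498 to 0.992) over unipolar brush cell and 0.676 (0.417 to 1.06) over cerebellar nuclei markers, where Tbr1 was at 0. Markers of vessels, meninges and blood had at most 38 UMIs per list. The part of these cell types in the differences was not tested beyond the split by GABAergic markers.

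The other classes show where the differences extended beyond the members. Summed over the 6 GNP-enriched genes, the ratio was 0.148 in members, 0.274 (0.236 to 0.317) in dividing nuclei outside the rule, 0.417 (0.393 to 0.442) in non-dividing granule nuclei and 0.584 (0.447 to 0.764) in microglia. Microglia should lack these genes and had 233 and 136 CPM of them, against 1479 and 218 CPM in members, and whether this came from free RNA or doublets was not tested. Nrxn3 had ratios of 1.35 in non-dividing granule nuclei, 1.04 in dividing nuclei outside the rule and 0.893 in microglia, and Epha3 of 1.55, 1.19 and 1.29. The 9 GABAergic markers had a summed ratio of 1.43 in non-dividing granule nuclei, 1.22 in dividing nuclei outside the rule and 1.06 in microglia. Fewer nuclei of a kind and less RNA of a gene per nucleus both lower a summed level, and where the members are a mixture they cannot be told apart from sums alone.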

How the data were processed

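Per the labels and the study's methods, the authors counted UMIs with Cell Ranger 7.0.1 on mm10 (GRCm38) from 10x Genomics 3′ libraries of nuclei. The deposited values are raw UMI counts per gene and nucleus, whole numbers without normalisation. Whether intronic reads were counted is not given in the sources used here. No correction for free RNA was applied here, and no doublets were removed in the main analysis. As an alternative, the nuclei with the highest Scrublet scores were left out, 0.8% per 1000 barcodes (scanpy 1.11.5), which took 12 control members and 8 of the cKO-labelled library. No column of per-sample values was set aside.

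Members and comparison classes were selected on raw UMIs. Non-dividing granule nuclei met every condition of the rule but had no UMI of the division genes, dividing nuclei outside the rule had at least 3 such UMIs and failed another condition, and microglia had at least 3 UMIs of Csf1r, Cx3cr1, Inpp5d and Ptprc. UMIs were summed per library and class and scaled to CPM (a total of 1000000). Genes with a mean of at least 50 CPM over the 2 libraries were called at a ratio of at least 2 or at most 0.5. Named genes were the 12 highest and 12 lowest by the bound of the ratio's interval nearest to 1, leaving out the 10 genes of the rule, Xist, Tsix and Y-linked genes. Tox3, Atoh1, and members of 18 gene lists and 12 marker lists that were called or are well known were named too. Intervals are exact at 95% (Clopper-Pearson for shares, Poisson for CPM, conditional binomial for ratios). The members and lists were chosen with earlier results of these data known. Gene positions are from GENCODE vM21, matched by gene ID for 32235 of 32285 features. Computations used Python 3.11.15, numpy 2.4.6, scipy 1.17.1 and pandas 2.3.3, and the comparison was tested on simulated data. Depth per class sets the counting intervals given beside the values. Values of some single genes of these lists are not reported here.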

Additional observations from a re-analysis of the deposited data

How the results depend on the processing

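With 1 library per group, leaving out a replicate was not possible, and no alternative gives an error between animals. No paired analysis was possible because each group is 1 library. The lower share of members kept its direction under every alternative: it was 3.07-fold to 4.37-fold lower under the other selections, 2.41-fold of granule lineage nuclei, 6.18-fold with at most 1 UMI of the 9 GABAergic markers and 5.79-fold with no UMI of 7 of them. These last 2 selections were chosen after the data had been seen, and they directly limit the summed ratios of the GABAergic markers given below. The 159 genes higher and 106 lower became 277 and 264 at a mean of at least 25 CPM, 85 and 49 at 100 CPM, 1852 and 1468 with no filter beyond 1 UMI in each library, 399 and 408 at 1.5-fold and 52 and 26 at 3-fold. Genes higher and lower were 220 and 230 with no glial or Gad UMI, 198 and 170 with at most 1 UMI of the 9 markers and 211 and 200 with nuclei thinned to 2000 UMIs, so that 48.9%, 53.8% and 51.3% of the calls were higher, against 60.0%. These settings shared 73, 61 and 73 of the 106 lower genes and 121, 82 and 126 of the 159 higher ones. With no UMI of the 7 markers, 66 of the lower and 81 of the higher genes were shared. The summed ratios moved as follows. With at least 2 division gene UMIs, G2/M genes were at 0.966, granule lineage transcription factors at 1.02, differentiation genes at 1.10, Notch genes at 0.771, axon guidance genes at 0.854 and potassium channels at 1.15. With at least 5, differentiation genes were at 1.17, GABAergic markers at 2.56 and potassium channels at 1.11. With no glial or Gad UMI, the 6 GNP-enriched genes were at 0.114, Shh pathway genes at 0.721, transcription factors at 1.05, GABAergic markers at 3.84, TOX genes at 1.73, Notch genes at 0.965, guidance genes at 0.871 and histones at 0.834. With at most 1 UMI of the 9 markers, G2/M genes were at 1.11, cyclins at 0.958, Shh pathway genes at 0.925, transcription factors at 1.02, GABAergic markers at 1.38, guidance genes at 0.752, matrix genes at 1.17, potassium channels at 0.989, stress genes at 1.89 and cilium genes at 0.984, and differentiation genes turned to 0.965. With no UMI of the 7 markers, G2/M genes were at 1.15, Shh pathway genes at 0.939, GABAergic markers at 1.27, Notch genes at 0.968, guidance genes at 0.745, matrix genes at 1.15, FGF and WNT genes at 1.13, potassium channels at 0.997 and stress genes at 1.69, and differentiation genes turned to 0.963. Without the highest Scrublet scores guidance genes were at 0.877, with median-of-ratios scaling differentiation genes were at 1.17, with the mean of each nucleus's own CPM GABAergic markers were at 3.32, and thinned to 2000 UMIs FGF and WNT genes were at 1.13 and p53 genes at 0.865. The ratio of Gm38505 turned to 0 with no UMI of the 7 markers, and that of Skor1 to 0 under both marker selections, with 0 UMIs left in the cKO-labelled library. The cause was not tested. Tox3 went to 1.78 with no glial or Gad UMI and Dlgap2 to 0.754 with at least 2 division gene UMIs, both within 2-fold.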
